A study of Mus musculus with 12 samples.

Results

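The genes described here lost RNA under doxorubicin in Dux knockout (Dux KO) and wild-type (WT) mouse embryonic stem cells and kept it, by the same ratios, in p53 knockout (p53 KO) cells. They were chosen from the measured levels, as CPM (counts scaled to a common library total) averaged per group. A member had a control mean of at least 10 CPM in all 3 genotypes, a drug/control ratio of at least 0.8 in p53 KO cells and of at most 0.33 in both Dux KO and WT cells. Of 54532 gene identifiers in the count table, 10476 passed the control minimum and 56 met the ratios. Another 11 of those, predicted genes named Gm with a number, were left out. The remaining 45 identifiers, which carry 44 symbols because Gcat has 2 overlapping Ensembl entries, are the members, and the rule's limit of 200 was not reached. Since the ratios chose the members, they are given as a description without a test.

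Poly(A) RNA was sequenced from E14 mouse embryonic stem cells grown on gelatin with LIF and the 2i inhibitors of the MEK and GSK3 kinases. The groups were p53 KO, Dux KO and WT cells, each given 1 uM doxorubicin for 6 h, and the same genotypes given DMSO vehicle for 6 h (control), in each case followed by fresh medium without drug. Each group had 2 libraries. In the knockouts they came from lines 1 and 2, so their spread holds the difference between lines, while both WT libraries bore the name of 1 line and are called a and b. Neither the kind of edit in the knockouts nor the time spent in drug-free medium was stated. No label says whether the 2 libraries of a WT group came from separate cultures, so p-values measure only the spread between these libraries. The count column of Dux KO control 2 repeats that of Dux KO doxorubicin 1 in all 54532 genes and was left out, which leaves 11 libraries of 23270358 to 56795858 counts and a lone Dux KO control.

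Trp53, which encodes p53, stood at 103 and 51.3 CPM in p53 KO doxorubicin libraries and 64.4 and 36.5 CPM in p53 KO controls. In WT cells it stood at 144 and 131 CPM with doxorubicin and 184 and 148 CPM in controls. The targeted RNA was thus lower in p53 KO cells but present. Duxf3, the gene of the 2-cell-stage factor Dux, had 0 counts in all 3 Dux KO libraries. It had 23.1 and 22.5 CPM in WT doxorubicin libraries but 0.0739 and 0 CPM in WT controls. Only the doxorubicin libraries can therefore show its loss. All 10 stem cell markers examined (such as Pou5f1, Nanog and Sox2) exceeded 10 CPM in every control library. Their summed level was lower with doxorubicin in every genotype, also in p53 KO cells, where the members had a median drug/control ratio of 1.02. It ran from 3160 to 3460 CPM in p53 KO doxorubicin libraries and from 4620 to 4650 CPM in p53 KO controls. The sum was 2240 to 2460 CPM in Dux KO doxorubicin libraries and 4860 CPM in the Dux KO control, and 937 to 1150 CPM in WT doxorubicin libraries and 5200 to 5280 CPM in WT controls. The 15 trophectoderm markers summed to 246 to 363 CPM with doxorubicin and 162 to 323 CPM in controls in p53 KO cells, to 401 to 535 and 164 CPM in Dux KO cells, and to 543 to 554 and 168 to 172 CPM in WT cells. The 14 primitive endoderm markers summed to 551 to 554 CPM with doxorubicin and 246 to 341 CPM in controls in p53 KO cells, to 461 to 483 and 337 CPM in Dux KO cells, and to 527 to 545 and 349 to 375 CPM in WT cells. The 10 neuroectoderm markers summed to 176 to 178 and 87.4 to 116 CPM in p53 KO cells, to 45.8 to 49 and 97 CPM in Dux KO cells, and to 101 to 103 and 81 to 92.2 CPM in WT cells, again with doxorubicin before control. The 10 fibroblast markers summed to 990 to 1990 CPM with doxorubicin and 684 to 1330 CPM in controls in p53 KO cells, to 1120 to 1380 and 1910 CPM in Dux KO cells, and to 607 to 640 and 785 to 788 CPM in WT cells. With doxorubicin the trophectoderm sum was thus higher in Dux KO and WT cells and overlapped in p53 KO cells. The primitive endoderm sum was higher in each genotype. The neuroectoderm sum was higher in p53 KO and WT cells and lower in Dux KO cells. The fibroblast sum was lower in Dux KO and WT cells and overlapped in p53 KO cells. None of these markers was at 0 in every library, and 4, 4, 3 and 3 of the lists' markers were under 1 CPM in every control. The part of all these markers in the results was not tested. In bulk RNA, fewer cells of a type and less RNA per cell cannot be told apart.

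Doxorubicin traps topoisomerase II on DNA and leaves breaks, which stabilise the transcription factor p53. p53 is best known for switching genes on. Falls that depend on it are commonly indirect, for example through the cell-cycle inhibitor p21, although in mouse embryonic stem cells p53 has also been linked directly to lower expression of pluripotency genes. Embryonic stem cells rely on a naive pluripotency network, on threonine breakdown to glycine for one-carbon units, and on lipid synthesis for rapid growth, and the members include genes of each of these.

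The sequences just before the start sites are shown for the 4 members with the lowest WT ratio among those with an entry in RefSeq's promoter table (GRCm38.p6, the assembly of mm10), because these genes moved together. They are the 250 bases upstream of RefSeq's start, written 5′ to 3′ on the gene's strand, which is minus in all 4. The annotation used for gene spans starts Lrrc34 at 30647869, Tcl1 at 105222793 and Hpdl at 116821707. By that annotation, part of each of these windows lies inside the gene. Capitals mark the GC box GGGCGG, the word bound by SP and KLF factors, read on either strand. The regions are chr3:30647819-30648068 for Lrrc34, chr12:105222738-105222987 for Tcl1, chr11:82991831-82992080 for Slfn9 and chr4:116821509-116821758 for Hpdl.
Lrrc34: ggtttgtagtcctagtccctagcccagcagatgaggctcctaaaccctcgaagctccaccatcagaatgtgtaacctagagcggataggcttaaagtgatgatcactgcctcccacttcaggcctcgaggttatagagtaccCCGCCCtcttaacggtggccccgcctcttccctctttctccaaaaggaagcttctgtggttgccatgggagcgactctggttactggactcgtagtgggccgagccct
Tcl1: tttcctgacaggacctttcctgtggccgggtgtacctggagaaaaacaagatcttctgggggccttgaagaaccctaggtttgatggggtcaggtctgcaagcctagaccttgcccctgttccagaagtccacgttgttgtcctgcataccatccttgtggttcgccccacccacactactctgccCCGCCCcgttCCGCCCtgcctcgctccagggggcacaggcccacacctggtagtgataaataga
Slfn9: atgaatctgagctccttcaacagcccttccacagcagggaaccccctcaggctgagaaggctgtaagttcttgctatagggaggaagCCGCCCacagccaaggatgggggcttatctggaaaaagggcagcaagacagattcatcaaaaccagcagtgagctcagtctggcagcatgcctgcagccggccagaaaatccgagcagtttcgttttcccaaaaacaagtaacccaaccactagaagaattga
Hpdl: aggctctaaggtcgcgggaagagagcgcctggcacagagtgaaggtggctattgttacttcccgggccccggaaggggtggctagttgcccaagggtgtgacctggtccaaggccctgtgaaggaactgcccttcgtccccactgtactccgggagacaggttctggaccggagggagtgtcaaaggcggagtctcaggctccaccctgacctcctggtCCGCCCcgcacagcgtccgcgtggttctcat
Each of the 4 held this word, at -108 from RefSeq's start in Lrrc34, -64 and -54 in Tcl1, -163 in Slfn9 and -31 in Hpdl (position of its first base).

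Promoter entries were found for 31 of the 44 member symbols, and where a gene had several starts the first entry was read. The GC box was present in 13 of the 31 upstream regions (41.9%), compared with 61.9% of 7262 genes past the control minimum and 32.9% of all 27025 promoters. The members' regions had a median GC content of 52.0% and a median of 7 CpG dinucleotides, against 60.4% and 17 in genes past the control minimum. The TATA word TATAAA occurred in 12.9% of member regions, compared with 5.33% of genes past the minimum and 13% of all promoters. CATTGT, the core word of SOX factors, occurred in 22.6% of member regions, against 6.02% and 11%. The CCAAT word was found in 32.3%, compared with 38% and 34.5%. The octamer, an ESRRB-type word and the sterol regulatory element were in 0 of 31 regions, against 1.13%, 0.22% and 1.01% of genes past the minimum. The E-box, a KLF-type word, an E2F-type word and the CHR element occurred in 3.23%, 6.45%, 3.23% and 16.1%. Genes past the minimum had 9.13%, 3.22%, 2.04% and 10.8%. No motif was tested for enrichment. A p53 half-site was found in 0 of the 31 windows, against 5.52% and 7.18%, on either strand. Matches are letters in a window and show no binding, and these motifs can overlap one another.

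The members fell most in WT cells. Their median drug/control ratio was 1.02 in p53 KO cells, 0.244 in Dux KO cells and 0.135 in WT cells, while the 10476 genes past the minimum had medians of 1.12, 0.985 and 0.852. Among those genes, 83.9% had a ratio of at least 0.8 in p53 KO cells, 0.0573% a ratio of at most 0.33 there, 1.45% a ratio of at most 0.33 in Dux KO cells and 5.86% a ratio of at most 0.33 in WT cells. Ratios of the members ran from 0.823 to 2.59 in p53 KO cells, from 0.119 to 0.327 in Dux KO cells and from 0.0362 to 0.319 in WT cells. The ratio was lower in WT than in Dux KO cells for 40 of 45 members, against 67.3% of genes past the minimum. Outside predicted genes, 90 genes fell to 0.33 or less in both Dux KO and WT cells. The members are the 45 of them at or above 0.8 in p53 KO cells, compared with 83.9% of all genes past the minimum. The other 45 lay lower in p53 KO cells, 12 of them at 0.5 or less.

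**Figure D1:**
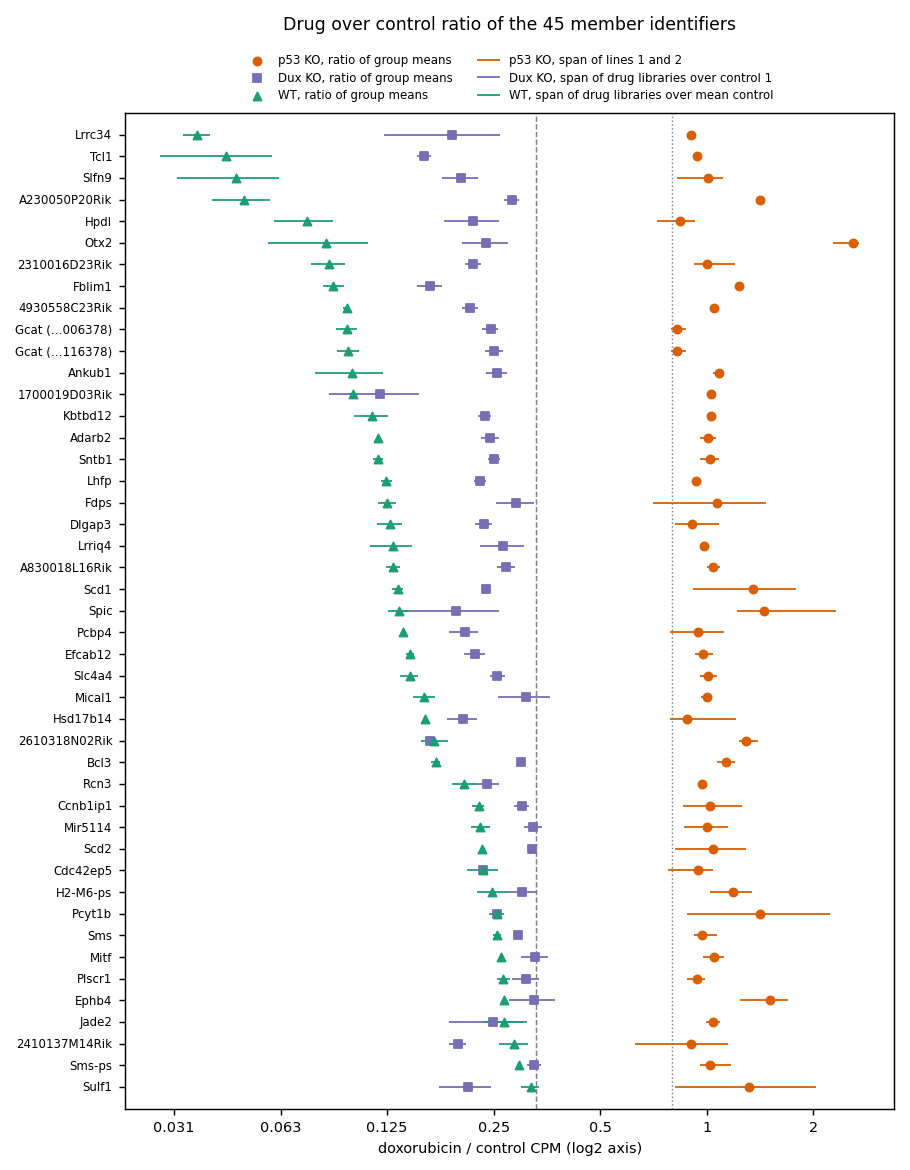
Drug/control ratio (log2 axis) of each of the 45 members in p53 KO (circles), Dux KO (squares) and WT cells (triangles), ordered by the WT ratio, with lines for the span of the libraries. The WT ratio runs from 0.0362 for Lrrc34 to 0.319 for Sulf1, and the dashed and dotted lines mark the cut-offs of 0.33 and 0.8.

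**Figure D2:**
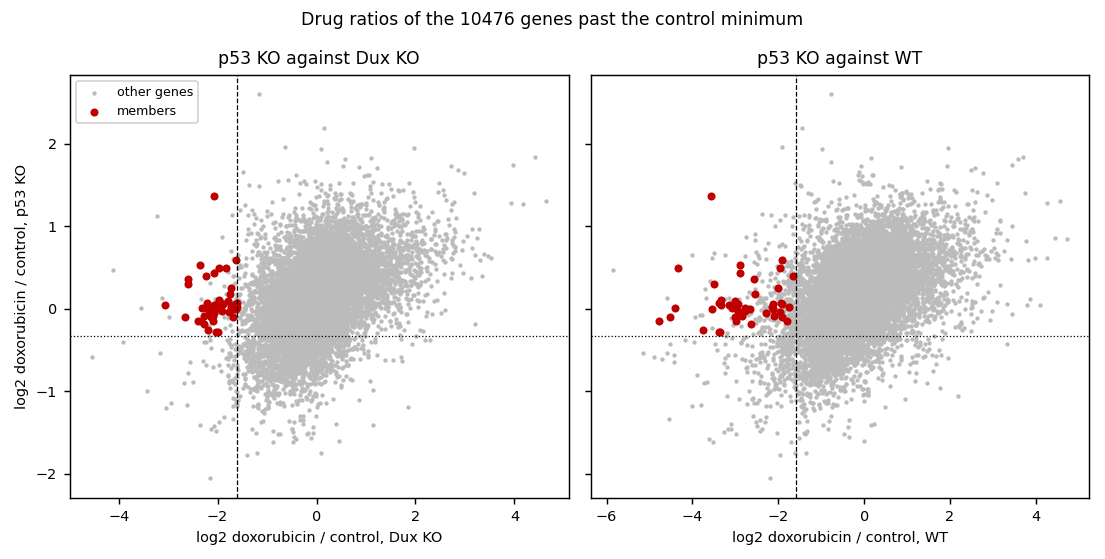
Log2 drug/control ratio in p53 KO cells (vertical axis) against that in Dux KO cells (left) and WT cells (right) for the 10476 genes past the control minimum, with members in red. Members lie left of the 0.33 cut-off (dashed) and above the 0.8 cut-off (dotted) because they were chosen so; the median of all plotted genes is 1.12 in p53 KO, 0.985 in Dux KO and 0.852 in WT cells.

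Regulators of pluripotency and cell fate are given first. Tcl1 (ENSMUSG00000041359, chr12:105216750-105222793), a coactivator of AKT kinase that supports stem cell self-renewal, had 53.3 and 83.5 CPM in p53 KO doxorubicin libraries and 57.2 and 88.9 CPM in p53 KO controls. It had 17.6 and 16.1 CPM in Dux KO doxorubicin libraries and 106 CPM in the Dux KO control. In WT cells it had 4.61 and 2.23 CPM with doxorubicin and 76.8 and 79.5 CPM in controls. Groups with and without drug interleave in p53 KO cells and stand far apart in the other genotypes. In p53 KO cells line 2 was the higher line in both conditions, and the ratios within lines 1 and 2 were 0.932 and 0.94.

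Otx2 (chr14:48657677-48673819), a homeobox factor that drives exit from the naive state and later patterns the forebrain, had the highest p53 KO ratio of the members, 2.59. It had 12.7 and 41.4 CPM in p53 KO doxorubicin libraries and 5.59 and 15.3 CPM in p53 KO controls. The drug-treated level of line 1 lies below the control level of line 2, so these groups overlap, yet the level was higher with drug within each line (ratios 2.27 and 2.70). In Dux KO cells Otx2 had 2.48 and 3.34 CPM with doxorubicin and 12.2 CPM in the control, and in WT cells 1.38 and 0.721 CPM with doxorubicin and 10.6 and 14.4 CPM in controls. Otx2 lies across the noncoding Otx2os1 of the opposite strand, which had 50.3 CPM in WT controls against 12.5 CPM for Otx2, and counting is not stated to use strand. Otx2 is also a neuroectoderm marker, and the other markers of that list are given below.

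Spic (chr10:88674772-88685015), an ETS factor of red pulp macrophages that embryonic stem cells also express, had 13 and 25.9 CPM in p53 KO doxorubicin libraries and 5.59 and 21.2 CPM in p53 KO controls. It stood at 1.73 and 3.38 CPM in Dux KO doxorubicin libraries against 13.1 CPM in the control, and at 1.65 and 1.44 CPM in WT doxorubicin libraries against 13 and 9.91 CPM in WT controls. The drug-treated levels were the lower ones in Dux KO and WT cells, and in p53 KO cells the lines differed more than the treatments. Mitf, a basic helix-loop-helix factor of melanocytes and lysosome genes, had ratios of 1.05 in p53 KO, 0.327 in Dux KO and 0.262 in WT cells. Bcl3, an atypical IkB protein that acts with NF-kB, had ratios of 1.13, 0.298 and 0.172 in the same order of genotypes.

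Enzymes formed the next group. Gcat (ENSMUSG00000006378, chr15:79030874-79038353), which splits the product of threonine dehydrogenase into glycine and acetyl-CoA, had 80.9 and 56.2 CPM in p53 KO doxorubicin libraries and 102 and 64.6 CPM in p53 KO controls. It had 19.3 and 17.4 CPM in Dux KO doxorubicin libraries against 75 CPM in the control, and 6.33 and 5.51 CPM in WT doxorubicin libraries against 59.4 and 63.7 CPM in WT controls. Gcat is the member closest to the p53 KO cut-off, at 0.823, and its level was lower with drug within each p53 KO line (0.793 and 0.871). The second Gcat entry (ENSMUSG00000116378) overlaps it on the same strand, and the first had 0.972 to 0.999 of its count in each of the 11 libraries, so the 2 entries are 1 measurement. Tdh, the gene of threonine dehydrogenase itself, is given below with its pathway.

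Sterol and fatty acid enzymes included the desaturases Scd1 and Scd2, which make oleate-type fatty acids, and Fdps, which makes farnesyl diphosphate for sterols and prenylation. Scd1 (chr19:44394455-44407879) had 143 and 271 CPM in p53 KO doxorubicin libraries and 156 and 151 CPM in p53 KO controls. It had 50.6 and 51.9 CPM in Dux KO doxorubicin libraries against 215 CPM in the control, and 20.5 and 19.0 CPM in WT doxorubicin libraries against 145 and 150 CPM in WT controls. The p53 KO lines split: the drug/control ratio was 0.915 in line 1 and 1.79 in line 2. The same split was seen for Scd2 (0.812 and 1.29) and Fdps (0.704 and 1.47), and Fdps shares its span with the predicted gene Gm43738 on the same strand. Scd2 had the most counts of the members, at 666 ± 181 CPM in p53 KO doxorubicin libraries and 641 ± 32.2 CPM in p53 KO controls (SD, n = 2), and at 172 ± 0.581 CPM with doxorubicin and 745 ± 50.4 CPM in controls of WT cells (SD, n = 2).

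Hpdl, a mitochondrial dioxygenase-like protein, had ratios of 0.839 in p53 KO, 0.219 in Dux KO and 0.0741 in WT cells. Sms, spermine synthase, had 0.971, 0.292 and 0.256, and its processed pseudogene Sms-ps had 1.02, 0.326 and 0.295. All 1052 of the 50-base words of Sms-ps also occur in Sms transcripts, so their reads may not be separable. Pcyt1b, an enzyme of phosphatidylcholine synthesis, had ratios of 1.41, 0.256 and 0.255, with 0.882 in p53 KO line 1 and 2.23 in line 2. Hsd17b14, a hydroxysteroid dehydrogenase, had ratios of 0.882, 0.205 and 0.160, but its p53 KO control level was 80.7 CPM in line 1 and 23.3 CPM in line 2.

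Genes of adhesion, cytoskeleton and the cell surface made up another group. Fblim1 (chr4:141576062-141606096), which encodes migfilin and ties filamin to cell-matrix junctions, had 176 and 169 CPM in p53 KO doxorubicin libraries and 142 and 140 CPM in p53 KO controls. It had 42.8 and 36.5 CPM in Dux KO doxorubicin libraries against 240 CPM in the control, and 16 and 14 CPM in WT doxorubicin libraries against 187 and 153 CPM in WT controls. Both p53 KO drug libraries lay above both controls, as for 36.7% of genes past the minimum, and both lines gave near-equal levels. With TMM scaling, described below, the p53 KO ratio of Fblim1 was 0.984. The dystrophin-complex protein gene Sntb1 had ratios of 1.02 in p53 KO, 0.25 in Dux KO and 0.118 in WT cells, and the bicarbonate transporter gene Slc4a4 had 1.01, 0.256 and 0.145. Mical1, an oxidase that takes actin filaments apart, had 0.999, 0.308 and 0.159, and overlaps Smpd2 on the opposite strand. Ephb4, the receptor of ephrin-B2, had 1.51, 0.324 and 0.267. Its control level was 1.93 times the WT level in p53 KO cells and 2.54 times in the Dux KO control of line 1. The Dux KO control of line 2, rebuilt as described below, had 29.5 CPM against a mean of 26.7 CPM in WT controls. Sulf1, which trims sulfate from heparan sulfate, had the highest WT ratio of the members, 0.319, with 0.816 in p53 KO line 1 and 2.03 in line 2. The phospholipid scramblase gene Plscr1 had 0.937, 0.308 and 0.266, and the Cdc42 effector gene Cdc42ep5 had 0.945, 0.233 and 0.234.

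The member with the lowest WT ratio was Lrrc34 (ENSMUSG00000027702, chr3:30624267-30647869), a leucine-rich repeat protein of the nucleolus found in pluripotent cells. It had 42.8 and 58.5 CPM in p53 KO doxorubicin libraries and 45.9 and 66.4 CPM in p53 KO controls. It had 23.2 and 10.9 CPM in Dux KO doxorubicin libraries against 89.1 CPM in the control, and 2.20 and 1.84 CPM in WT doxorubicin libraries against 53.2 and 58.2 CPM in WT controls. The p53 KO groups overlapped, with drug/control ratios of 0.931 and 0.881 within lines 1 and 2, and the WT mean was 96.4% lower with doxorubicin. Lrrc34 overlaps its neighbour and fellow member Lrriq4 on the opposite strand, so their reads may not be separable. Slfn9, of the Schlafen family, had the third lowest WT ratio, with 1.01, 0.202 and 0.0469. Among genes acting on RNA or chromatin, Pcbp4, a poly(C)-binding protein gene reported in human cells as switched on by p53, had 0.943 in p53 KO, 0.207 in Dux KO and 0.139 in WT cells. Jade2, of a histone acetyltransferase complex, had 1.04, 0.249 and 0.267, and Ccnb1ip1, a ligase of meiotic crossovers, had 1.02, 0.300 and 0.227.

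Other members have less known roles. The kelch-repeat gene Kbtbd12 had ratios of 1.03 in p53 KO, 0.236 in Dux KO and 0.113 in WT cells, and Lhfp, of a tetraspan membrane family, had 0.931, 0.229 and 0.124. Dlgap3, a scaffold of the postsynaptic density, had 0.906, 0.235 and 0.127. The RIKEN gene 1700019D03Rik had the lowest Dux KO ratio of the members, 0.119, beside 1.03 in p53 KO and 0.0998 in WT cells. A230050P20Rik had 1.41, 0.282 and 0.0493, and 2310016D23Rik, 4930558C23Rik and Ankub1 had WT ratios of 0.0855, 0.0962 and 0.0997 and p53 KO ratios of 1.00, 1.05 and 1.08. Of the remaining members, Efcab12, 2610318N02Rik and H2-M6-ps had p53 KO ratios of 0.979, 1.29 and 1.19 and WT ratios of 0.145, 0.170 and 0.247.

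**Figure D3:**
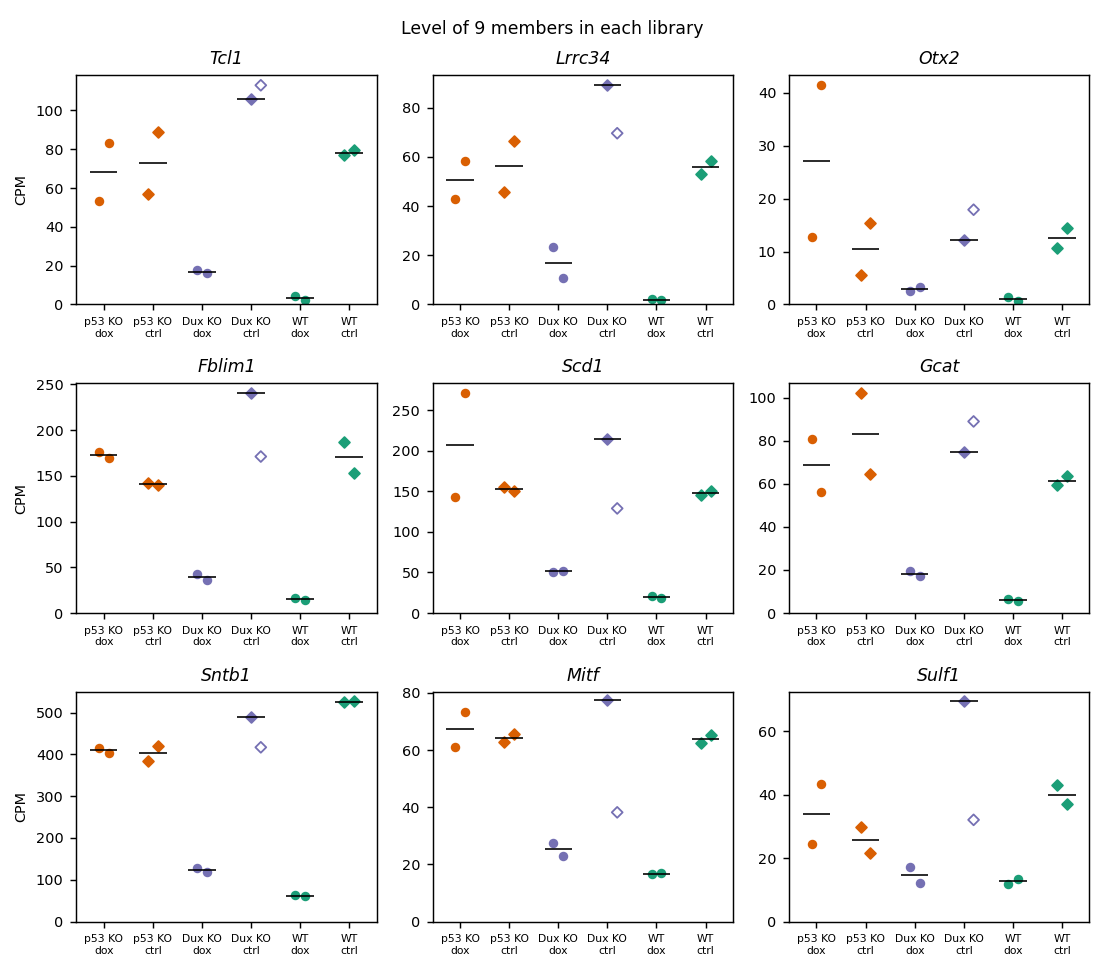
CPM of 9 members in each library, as circles for doxorubicin (dox) and diamonds for control (ctrl), with bars at group means and the Dux KO control library rebuilt from FPKM as an open diamond. Doxorubicin libraries of Dux KO and WT cells sit below every control of their genotype in all 9 panels, while those of p53 KO cells overlap their controls or, for Fblim1, lie above them. With TMM scaling the p53 KO ratio of Fblim1 was 0.984.

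The cut-offs fell within a continuous range. Just inside the WT cut-off were 2410137M14Rik (0.286), Sms-ps (0.295) and Sulf1 (0.319), and genes just outside included Adamts3 (0.334) and Lin28a (0.349). At the Dux KO cut-off the members Ephb4, Sms-ps and Mitf had 0.324, 0.326 and 0.327, and the non-members Trip10, Ly6e and Sgk1 had 0.33, 0.331 and 0.333. At the p53 KO cut-off the nearest members were the Gcat entries (0.823 and 0.825) and Hpdl (0.839), and the nearest genes outside were Rps6ka6 (0.794), Nupr1 (0.770) and Gnb4 (0.770).

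How far the members kept their RNA in p53 KO cells depended on the line and on the scaling. At least 0.8 of the control level was kept by 39 of 45 members in line 1, by 43 in line 2 and by 37 in both lines, where 82.7% and 83.8% of genes past the minimum did so in lines 1 and 2. The p53 KO doxorubicin libraries lay both below both controls for 0 members, against 18.2% of genes past the minimum, and both above for 5 members, against 36.7%. The other 40 overlapped, in a comparison that does not pair the libraries by line. Scaling by library totals places the median gene at 1.12 in p53 KO cells, so a member at 1.02 stood below the median gene. With TMM scaling, which sets most genes to no change, the members' median in p53 KO cells was 0.811 against 0.897 for genes past the minimum, and 19 members fell below 0.8. Under TMM the medians in Dux KO and WT cells were 0.215 and 0.124, and 0 members exceeded 0.33 in either. In edgeR's quasi-likelihood fit, which uses TMM, 0 members were called higher and 1 lower (Lhfp) with doxorubicin in p53 KO cells, where 9.31% of all tested genes were called higher and 8.09% lower. With the line as a block, 1 was called higher (Otx2) and 22 lower, where 21.6% and 16.4% of all tested genes were. With the block and the rebuilt Dux KO control described below, 1 was called higher (Otx2) and 6 lower. Of 26974 genes tested in that fit, 4904 were called higher and 3397 lower. DESeq2 called 0 members higher and 6 lower, where 3382 and 3205 of 28643 genes were. The rule used these libraries, so nothing is read from these counts.

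The Dux KO control library that the rule could not use gave a separate look at the Dux KO fall. Its FPKM column is distinct, and counts were rebuilt from it (55663736 reads), a step chosen after seeing the data. With this library as the control, 32 of 45 members were at 0.33 or less, compared with 1.32% of genes past the minimum, and 41 were at 0.5 or less, compared with 7.61%. The doxorubicin libraries were the same as those the rule used, so this checks only the control side. Members had a median ratio of 0.287 to this control, while all genes past the minimum had 1.06. Within line 2 by itself, all 45 members were lower in the doxorubicin library than in this control, against 46.3% of genes past the minimum. The 4 members above 0.5 were Jade2 (0.771), Ephb4 (0.744), Mitf (0.664) and Scd2 (0.503), and the control level of each was lower in line 2 than in line 1. Jade2 stood at 4.78 CPM in control 2 and 14.8 CPM in control 1. Of 305 genes that met the WT and p53 KO parts of the rule, 46 (15.1%) met 0.33 with control 2 and 45 with control 1. With both Dux KO controls in the rule 43 genes qualified, 39 of them members.

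**Figure D4:**
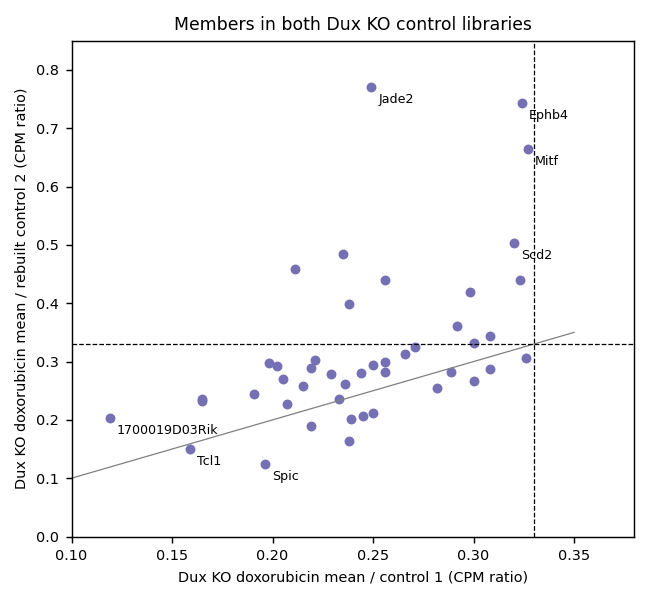
Dux KO doxorubicin mean divided by control 1 (horizontal axis, used by the rule) and by the rebuilt control 2 (vertical axis) for each member, with dashed lines at 0.33 and a grey line of equality. Members sit at 0.124 to 0.771 on the vertical axis, with Jade2, Ephb4, Mitf and Scd2 above 0.5.

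Levels before drug were also compared between genotypes. The p53 KO controls lay both below both WT controls for 16 members (35.6%) and both above for 11 (24.4%), compared with 23.4% and 21.1% of genes past the minimum. The other 18 overlapped. The log2 ratio of p53 KO to WT controls had a median of -0.09 and ran from -0.72 for Pcyt1b to 1.00 for A230050P20Rik, a gene of unknown function. By edgeR's quasi-likelihood test over all genes, 1 member was called higher and 0 lower in p53 KO than in WT controls, where 0.140% of genes were called higher and 0.747% lower. That member was Rcn3, an endoplasmic reticulum calcium-binding protein gene, with 35.6 ± 1.47 CPM in p53 KO controls and 19.6 ± 0.526 CPM in WT controls (SD, n = 2 each) (log2 0.92 on the TMM scale). In Dux KO against WT controls 1 member, Bcl3, was called higher (77.7 CPM against 40.9 and 41.7 CPM, log2 0.97) and 0 lower, where 0.656% and 0.346% of genes were. With 1 library left out 0 to 3 members were called in each of these comparisons, and without any 1 of the 4 WT libraries neither Rcn3 nor Bcl3 was called. For Bcl3 the Dux KO value is that of line 1, and the rebuilt control of line 2 had 55.2 CPM. The control libraries compared in the tests also entered the rule, so the comparison is not independent of it.

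Some members may not be separate measurements. The deposited FPKM used the whole gene span with introns as length (the count per FPKM was proportional to the span, within 1%, in 87.4% of 14728 genes). Whether reads in introns were counted was not tested. Overlapping genes may share reads. Another gene overlaps 24 members, and in 5 of these, apart from the Gcat entries, it had more WT control counts than the member. Mir5114, a microRNA gene inside Scd2, had 0.0262 to 0.0308 of the Scd2 count and followed it in every library. The members occupy 40 loci on 17 chromosomes, and 41 are protein coding. Adarb2, an inactive relative of the RNA-editing enzymes on chromosome 13, and Sntb1 on chromosome 15 share no locus. Yet the Adarb2 count was 0.893 to 0.934 of the Sntb1 count in all 11 libraries, with 1680 or more counts in each. The chi-square statistic of this pair's counts was 0.727 per degree of freedom, against a median of 62.6 over the 990 member pairs, and the SD of its log2 count ratio was 0.0195. Counts here are not all single independent reads, so the statistic is a description and has no p. Kbtbd12 on chromosome 6 followed Adarb2 less closely (2.68 per degree of freedom, SD 0.0742). Adarb2 shares 2.07% of its annotated 50-base words with any other gene's transcripts and Sntb1 0.152%, and intron sequence was not used here, so whether these genes share intronic reads was not tested.

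The pathways of the members were followed in the genes that the rule did not take. The sterol and fatty acid list holds 20 tested genes that are no members. With doxorubicin 0 rose and 2 fell in p53 KO cells, 0 rose and 15 fell in Dux KO cells, and 0 rose and 14 fell in WT cells (edgeR, adjusted p under 0.05). Over all 28643 tested genes 9.31%, 14.5% and 29.0% rose and 8.09%, 11.9% and 23.4% fell in these genotypes. The response was higher in p53 KO than in WT cells, by the test of the difference itself, for 12 of the 20 and lower for 0, against 9.90% and 10.3% of all genes. Their median log2 response was -0.17 in p53 KO, -1.20 in Dux KO and -1.14 in WT cells, where all tested genes had 0.18, 0 and 0.13. The tested genes include many below the control minimum. Genes past that minimum had median ratios of 0.897, 0.867 and 0.782 on TMM-scaled CPM, each under 1. A median under 0 on the log2 scale was thus not particular to this list. These genes share control libraries across the tests. The list was chosen with earlier results of these data known.

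Srebf2, the transcription factor of sterol genes, was not called in p53 KO cells (log2 0.06, edgeR adjusted p = 0.77) or Dux KO cells (log2 -0.37, adjusted p = 0.078) and fell in WT cells (log2 -1.06, adjusted p = 0.00011). Cyp51 and Fdft1, enzymes of the sterol route, fell in all 3 genotypes by edgeR, by log2 -0.76 and -0.66 in p53 KO, -1.66 and -1.34 in Dux KO and -1.84 and -1.98 in WT cells. Their p53 KO calls were lost with limma on FPKM (adjusted p = 0.084 to 0.13 for Cyp51 and 0.22 to 0.31 for Fdft1), where 0 of the list fell and 1 or 2 rose. In p53 KO cells 7 rather than 2 fell with the line as a block, 5 without p53 KO doxorubicin 2, and 1 without WT control a, WT control b, p53 KO control 1 or p53 KO doxorubicin 1. The 12 higher responses became 7 without WT control b and 7 without WT doxorubicin b.

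The amino acid and folate list holds 26 genes that are no members. By edgeR 2 rose and 10 fell in p53 KO cells, 1 rose and 17 fell in Dux KO cells, and 2 rose and 19 fell in WT cells, and 14 of the 26 were not called in p53 KO cells. There 17 fell with the line as a block and 6 or 7 with limma. The p53 KO response was called higher than the WT response for 11 and lower for 2, the last being 5 with the block. Psat1, of serine synthesis, had 278 and 379 CPM in p53 KO doxorubicin libraries and 500 and 572 CPM in p53 KO controls (log2 -1.05, edgeR adjusted p = 0.0029), and 82.5 and 78.6 CPM with doxorubicin against 524 and 540 CPM in WT cells (log2 -2.85, adjusted p = 5.4e-06). The difference between the 2 responses was 1.80 on the log2 scale (SE 0.19, edgeR adjusted p = 0.00058). Pycr1 of proline synthesis and the folate enzyme Mthfd1l also fell in p53 KO cells (log2 -1.24 and -1.53), while Tdh, the threonine dehydrogenase that acts before Gcat, was not called there (log2 -0.43, adjusted p = 0.16) and fell in WT cells (log2 -2.39, adjusted p = 3.3e-05). Shmt1, which moves one-carbon units from serine, fell by log2 -1.67 in WT cells. Its p53 KO value was log2 -0.48, called by edgeR and in 7 of 20 alternatives.

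**Figure D5:**
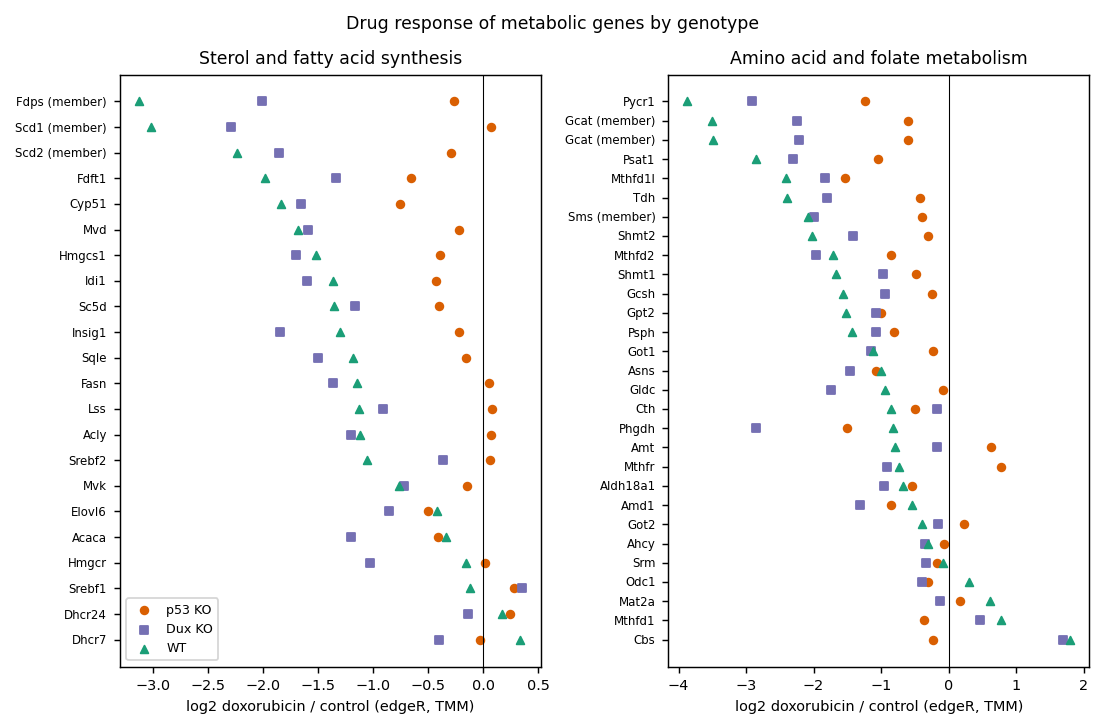
Log2 doxorubicin/control (edgeR, TMM) of the tested genes of both metabolic lists, with 1 gene of the sterol list left out, in p53 KO (circles), Dux KO (squares) and WT cells (triangles), ordered by the WT value. The p53 KO median of the non-members is -0.17 in the sterol list and -0.40 in the amino acid and folate list, where Psat1 lies at -1.05.

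Among 24 naive pluripotency factors other than Tcl1, 1 rose and 8 fell in p53 KO cells, 0 rose and 16 fell in Dux KO cells, and 1 rose and 17 fell in WT cells. With the line as a block 13 fell in p53 KO cells, 3, 3 and 1 fell with limma in its 3 settings, and 5 did with the rebuilt Dux KO control in the fit, or without WT control a, WT control b, p53 KO control 2 or p53 KO doxorubicin 2. The response was higher in p53 KO than in WT cells for 12 and lower for 2, and without any 1 of the 4 WT libraries it was lower for 0. It was higher in Dux KO than in WT cells for 2 and lower for 3, where 2.10% and 3.15% of all genes were. Those counts were 8 and 5 with the block, 5 and 4 by DESeq2, 3 to 5 and 2 with limma, 1 and 1 without WT control a and 1 and 0 without WT control b. Utf1, a chromatin protein of pluripotent cells, fell by log2 -0.76, -1.64 and -2.43 in p53 KO, Dux KO and WT cells (edgeR adjusted p = 0.011, 0.00035 and 9.7e-06), and the Utf1 call in p53 KO cells held in all 20 alternatives. Prdm14, a repressor that guards the naive state, had log2 -0.65, -1.80 and -2.72. The p53 KO calls of Prdm14, Esrrb and Tdgf1 were lost with limma (adjusted p = 0.27 to 0.37, 0.24 to 0.33 and 0.092 to 0.16) and held in 8, 9 and 15 of 20 alternatives. Of the 8 tested neuroectoderm markers other than Otx2, 2 rose and 1 fell in p53 KO cells, 1 rose and 3 fell in Dux KO cells, and 4 rose and 1 fell in WT cells. Nes had 74.9 and 79.4 CPM in p53 KO doxorubicin libraries and 41.8 and 32.1 CPM in p53 KO controls, and 40.1 and 51.6 CPM with doxorubicin against 15.0 and 17.4 CPM in WT cells, and it rose in both genotypes by edgeR (log2 0.73 and 1.38, adjusted p = 0.048 and 0.00083). Sox1 fell in WT cells (log2 -2.27) and had log2 -1.79 in p53 KO cells (edgeR adjusted p = 0.048). The p53 KO calls of Nes and Sox1 held in 9 and 7 of 20 alternatives, with adjusted p up to 0.18 and 0.32. Zic1 had group means under 0.1 CPM in at least 1 control group and gets no fold.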

How the data were processed

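Poly(A) RNA libraries of 6 groups, 2 libraries each, were analysed from the deposited table. Per the submitters' processing notes, TopHat2, DESeq and DESeq2 were used with mm10. The deposited gene counts were made by the authors. The FPKM used whole gene spans as length, as tested against GENCODE M21, and whether the counts include introns was not tested. Whether strand was used is not given in the sources used here. Between 26.4% and 33.4% of counts over 500 were odd numbers, so counts are not all single independent reads. The authors' FPKM values, normalised to gene length and library size, were used as an alternative, on the log2(FPKM + 1) scale. Another 6 columns of group averages were not used.

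The members and gene lists were chosen with earlier results of these data known. CPM was computed from column totals. Tests used edgeR 4.0.16 (quasi-likelihood, TMM, filterByExpr, 28643 genes, Benjamini-Hochberg adjusted p under 0.05) with 1 fit over 11 libraries, so the lone Dux KO control is assumed to vary like the other groups. Alternatives used limma 3.58.1, DESeq2 1.42.0, other scalings and filters, single libraries left out and the replicate number as a block, coded as a line term within each knockout with none for WT. The same knockout line stands behind each number in p53 KO cells, and deviations of same-numbered libraries correlated at 0.435 over 28643 genes, so these numbers pair samples. On counts simulated for the WT drug comparison (25940 genes), edgeR called 198 of 200 genes changed 4-fold and 12 unchanged ones. The simulation gave every gene the same fixed dispersion and no difference between lines, so it does not measure recovery in the real libraries. For the repeated Dux KO control column, counts were rebuilt from its FPKM: 95.83% of 336 low values fell within 0.15 of a whole read.

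Genes named are the members with the 20 lowest WT ratios, those on a list, those at the extremes in p53 KO and Dux KO cells and at each cut-off, and, per list with a member, the 4 other genes with the lowest WT adjusted p, of which some results are not reported here. Further members are named by role, chosen after their values were seen. Shared 50-base words were counted in annotated transcripts, and promoters came from RefSeq GRCm38.p6. Figures used Python 3.11.15 and matplotlib 3.10.9.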

Additional observations from a re-analysis of the deposited data

Results flagged for a closer look

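The response to doxorubicin differed between genotypes, by edgeR's test of the difference, in these genes outside the member set. Differences are log2 responses, p53 KO minus WT unless stated, with adjusted p under 0.05. Among pluripotency factors the difference was 3.92 for Tdgf1, 1.96 for Esrrb, 1.67 for Utf1 and 2.06 for Prdm14. Dux KO minus WT was 3.31 for Tdgf1 and 1.12 for Esrrb. In amino acid and folate metabolism it was 1.80 for Psat1, 2.64 for Pycr1, 0.88 for Mthfd1l and 1.19 for Shmt1. In the sterol list it was 1.08 for Cyp51, 1.32 for Fdft1 and 1.12 for Srebf2. For Nes, Dux KO minus WT was -2.02, with 22.2 and 17.9 CPM in Dux KO doxorubicin libraries and 26.9 CPM in the Dux KO control. These genes were picked for a low WT adjusted p, and the tests share the WT libraries.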

How the results depend on the processing

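With 2 libraries a group and 1 Dux KO control, counts of calls moved with the fit. The rule took 41 genes with TMM scaling, 26 of them members, and 27 with RLE scaling, 19 of them members. Lrrc34, Tcl1, Slfn9, Hpdl and both Gcat entries were lost under both scalings. It took 22 and 200 genes with fall cut-offs of 0.25 and 0.5, and 41 to 52 with 1 library left out. With limma on log2(FPKM + 1) and on log2(FPKM + 0.1), both filtered, calls with drug were 2873 and 2983 in p53 KO, 4138 and 4021 in Dux KO and 8383 and 8470 in WT cells, against 4986, 7578 and 14997 with edgeR. With the replicate block, calls in p53 KO cells were 10876. With the block and the rebuilt Dux KO control they were 8301 in p53 KO and 13076 in Dux KO cells. Leaving out 1 library gave 3267 to 5168, 4291 to 9207 and 10397 to 16159 calls in p53 KO, Dux KO and WT cells.

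Between p53 KO and WT controls (254 calls, 1 member), DESeq2 gave 1312 calls (3 members), limma 41 and 110, and 55 unfiltered. The replicate block gave 3450 of 28643 genes (8 of 45 members). The block with the rebuilt control gave 1827 of 26974 (3 members), and the rebuilt control by itself 219 (0 members). Leaving out 1 library gave 30 to 775 calls and 0 to 3 members. Between Dux KO and WT controls (287 calls, 1 member), DESeq2 gave 2117 (3 members), limma on log2(FPKM + 0.1) 155, and limma unfiltered 727. The block gave 3017 (4 members) and the block with the rebuilt control 3001 (6 members). Leaving out 1 library gave 0 to 1156 calls and 0 to 3 members, and without any 1 of the 4 WT libraries edgeR called 0 genes, with 3340 to 4545 at an unadjusted p under 0.05 and 2117 by DESeq2 on all libraries. The block takes the spread between lines out of the error, so its p-values between genotypes do not cover that spread. Filtered edgeR and DESeq2 fits on all 11 libraries tested 28643 genes with 45 members, and those with the rebuilt control 26974. Control libraries entered the rule, so nothing is read from the member counts. Without Dux KO control 1 no Dux KO value could be computed.

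The Srebf2 response in p53 KO cells (0.06) was -0.02 without p53 KO doxorubicin 2 and -0.03 without WT doxorubicin b, with a range of -0.03 to 0.13. The Sox1 difference (0.48) was -0.15 without p53 KO control 2 and 1.57 without p53 KO control 1. The causes were not tested. Of the other results, 1165 values of named genes kept their direction and side of the threshold, 104 lost their call and 31 gained one.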
